A study of Homo sapiens with 10 samples.

Results

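The genes described here are 59 cell cycle and DNA replication genes, of which 27 act at the start of or during S phase and 32 act in mitosis. They were chosen by function, as probe sets annotated to only 1 of the gene symbols, and each gene was represented by the probe set with the highest mean over the 10 arrays. All 59 were measured and passed the filter on low values, among 14529 genes tested in all. Their messenger RNA was measured on Affymetrix arrays in HBL2 and JEKO, a pair of established cell lines of mantle cell lymphoma, a tumour of mature B cells that overexpresses cyclin D1.

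The groups were 3 arrays of HBL2 BR, 3 of HBL2 PT, 2 of JEKO BR and 2 of JEKO PT. BR cells are labelled as having resistance induced by bortezomib, a drug that inhibits the proteasome. The labels give PT only as letters, and these cells are taken as the matched parental cells from knowledge of the study. The labels do not say whether the resistant cells are a clone or a pool, or whether drug was present at harvest. All groups were harvested while growing logarithmically. The labels do not say that replicates were separate cultures, so a p-value here measures the spread between the arrays of a group, part or all of which may be technical.

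A dividing cell copies its DNA in S phase and separates the copies in mitosis. At the end of G1, E2F factors switch on genes for origin licensing, the MCM helicase, the replication fork and nucleotide supply, and cyclin E with CDK2 starts replication. Genes for the mitotic cyclins, the spindle, the kinetochore and factors that work with the anaphase promoting complex come on later, through G2. The proteasome removes cyclins and securin so that the cell can divide.

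Values are given in the deposited units, which run from 0 to 4.99 on every array with 0.730 as the median and 1.18 as the 75th percentile. The scale is log-like with an unstated base, so changes are differences in these units and not fold changes. All arrays share the same set of values, so a shift of most genes together cannot be seen. A gene was called higher or lower when its limma p-value, adjusted over all 14529 genes by the Benjamini-Hochberg method, was under 0.05, and each ± gives the standard error of the fitted change. In such bulk samples fewer cycling cells and less messenger RNA per cycling cell cannot be told apart. The cell cycle genes lay high on the arrays: 58 of the 59 reached the 75th percentile on all 10 arrays, and the exception, CCNE2, did so on 6.

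The markers of the labelled cell type were present: of 8 B cell and mantle cell lymphoma markers measured, 7 or 8 lay above the array median on every array of each group, and CCND1 itself was at 2.49 to 2.72 in HBL2 BR, 2.58 to 2.69 in HBL2 PT, 3.02 to 3.06 in JEKO BR and 3.26 to 3.33 in JEKO PT. The summed level of the 8 was 14.7 to 15.7 in HBL2 BR, against 16.0 to 16.9 in HBL2 PT, and 17.3 to 17.8 in JEKO BR, against 17.7 to 18.0 in JEKO PT. Of the 8, 7 had a negative change in HBL2 (against 7310 of all 14529 genes tested) and 2 were called lower (25%, against 6.86% of all genes). The summed level of 8 myeloid markers was 4.08 to 4.46 in HBL2 BR, against 4.53 to 5.67 in HBL2 PT. Much of this gap came from LYZ and ITGAM. LYZ was at 0.233, 0.254 and 0.533 in HBL2 BR, against 1.15, 0.985 and 0.638 in HBL2 PT. ITGAM was at 0.453, 0.707 and 0.255, against 0.855, 0.850 and 0.871. Of 5 myeloid markers tested, 4 had a negative change in HBL2 and 1 a positive change. The summed level of 9 T and NK cell markers was 6.07 to 6.22 in JEKO BR, against 5.48 to 5.57 in JEKO PT. CD7 carried this gap, at 1.40 and 1.66 in JEKO BR, against 0.828 and 0.992 in JEKO PT. The 2 other T and NK cell markers tested had negative changes. The sum of 8 stromal and epithelial markers was 7.64 to 8.27 in JEKO BR, against 8.56 to 8.63 in JEKO PT. Much of this came from PECAM1 (0.976 and 0.988, against 1.61 and 1.23) and VIM (2.21 and 2.18, against 2.53 and 2.55). Of these 8, 5 had a negative change in JEKO and 3 a positive change. Of the myeloid markers, 1 lay above the array median on every array in each group, and of 2 erythroid markers 0 or 1 did. Of the 9 T and NK cell markers, 1 did so in HBL2 BR, 0 in HBL2 PT, 1 in JEKO BR and 2 in JEKO PT. Of the 8 stromal and epithelial markers, 6 did so in JEKO BR and 3 in each of the other groups. As a sign of RNA quality, the 5' minus 3' signal of beta-actin was -1.04 on HBL2 BR replicate 3, -1.01 on JEKO BR replicate 2 and -1.25 on HBL2 PT replicate 1, and between -0.858 and -0.575 on the other arrays. The part of other cell types in the results below was not tested.

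**Figure D1:**
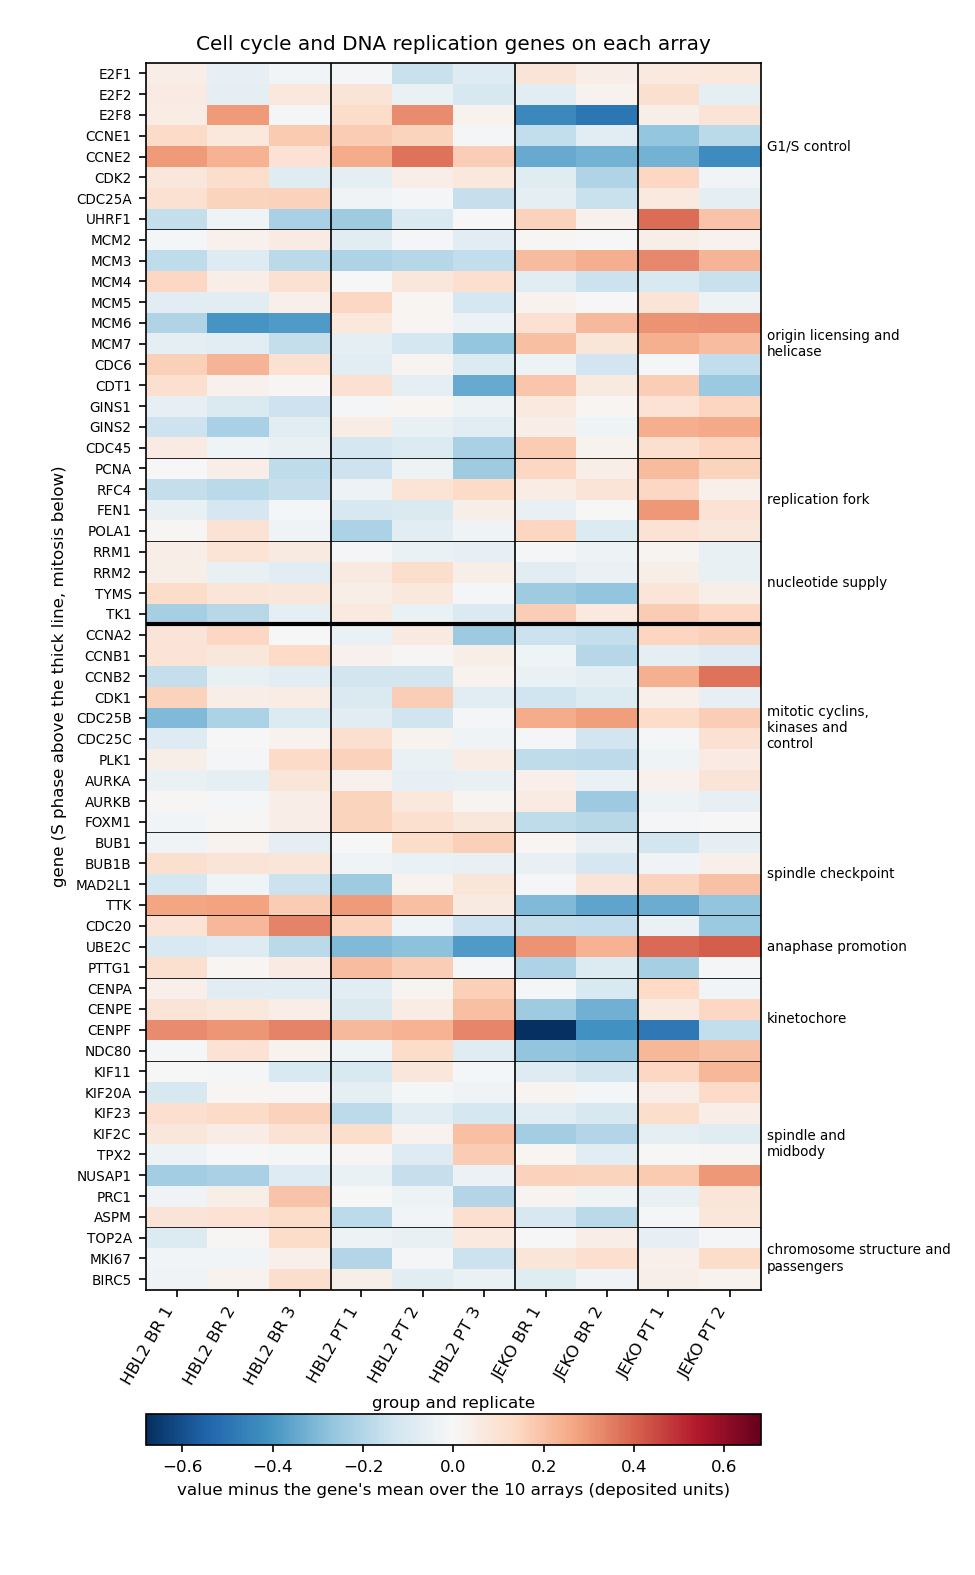
Each row is a gene and each column an array, coloured by the value minus that gene's mean over the 10 arrays in deposited units (red above, blue below), with S phase genes above the thick line and mitosis genes below it. E2F8, TYMS, CENPE and NDC80 are blue on both JEKO BR arrays, MCM6 is blue on the HBL2 BR arrays, and CENPF, TTK and CCNE2 separate HBL2 from JEKO.

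In resistant HBL2 cells, 53 of the 59 replication and mitosis genes did not pass the test against PT cells, and the 6 that did went both ways. Of the 59 genes, 4 were higher in HBL2 BR than in HBL2 PT (6.78%, against 4.91% of all genes tested) and 2 were lower (3.39%, against 6.86% of all genes), so neither share was far from that of all genes. Of the 4 higher genes, CDC25A and CDC6 act at the start of S phase and UBE2C and KIF23 in mitosis. Both lower genes, MCM6 and RFC4, belong to the replication machinery. The median change was 0.0325 over the 27 S phase genes and 0.0144 over the 32 mitosis genes, against -0.000987 over all genes tested.

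Among the genes of G1/S control, 1 of 8 was called. CDC25A, a phosphatase that removes inhibitory phosphates from CDK2, had values of 1.77, 1.82 and 1.83 in HBL2 BR cells, against 1.64, 1.66 and 1.51 in HBL2 PT cells. The groups did not overlap, and the change was 0.201 ± 0.0628 (limma adjusted p = 0.0485). Its other probe sets, which lie lower on the arrays, changed by 0.153 and 0.104. CCNE1, a cyclin E that activates CDK2, had 1.58, 1.52 and 1.63 in HBL2 BR cells, against 1.62, 1.60 and 1.44 in HBL2 PT cells, which overlapped (change 0.0210 ± 0.0654, adjusted p = 0.896). The changes of all 8 ran between -0.0553 and 0.201.

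Of the 11 genes of origin licensing and the helicase, 1 was higher and 1 was lower. CDC6, which helps to load the MCM helicase onto origins, had 1.88, 1.95 and 1.82 in HBL2 BR cells, against 1.65, 1.74 and 1.63 in HBL2 PT cells. The lowest resistant array lay above the highest PT array, and the change was 0.215 ± 0.0644 (adjusted p = 0.0394). A second CDC6 probe set, above the median on all 10 arrays, changed by 0.176. MCM6, a subunit of the MCM2 to MCM7 ring, moved the other way, with 2.30, 2.10 and 2.12 in HBL2 BR cells, against 2.57, 2.51 and 2.46 in HBL2 PT cells. All 3 resistant arrays were lower than every PT array, and the change of -0.343 ± 0.0641 was the largest in size among the 59 genes in this line (adjusted p = 0.00177).

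No other subunit of the same ring was called. MCM2 had 2.61, 2.65 and 2.68 in HBL2 BR cells, against 2.55, 2.61 and 2.55 in HBL2 PT cells (change 0.0737 ± 0.0524, adjusted p = 0.443). MCM3, MCM4, MCM5 and MCM7 changed by 0.0422, 0.0325, -0.0488 and 0.0485, with adjusted p of 0.717 to 0.803. The probe sets of MCM4 disagreed, since its others changed by 0.215, 0.179, 0.0460 and, on one under the median on every array, -0.0364. The second probe set of MCM5 changed by -0.0304 and that of MCM7 by -0.0850, the other sign to its first. A second probe set of MCM6, low on the arrays, changed by -0.154.

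At the replication fork, RFC4, a subunit of the loader that places the PCNA clamp on DNA, had 2.13, 2.11 and 2.13 in HBL2 BR cells, against 2.26, 2.38 and 2.42 in HBL2 PT cells. The resistant arrays lay close together below all PT arrays, and RFC4 fell by 0.229 ± 0.0593 (adjusted p = 0.0175). PCNA, the sliding clamp itself, had 2.94, 2.98 and 2.76 in HBL2 BR cells, against 2.80, 2.90 and 2.69 in HBL2 PT cells, and these overlapped (change 0.0956 ± 0.0690, adjusted p = 0.451). FEN1, which trims Okazaki fragments, and POLA1, the catalytic subunit of DNA polymerase alpha, did not pass the test, with changes of -0.00602 and 0.131 (adjusted p = 0.971 and 0.3001). None of the 4 genes of nucleotide supply was called by limma (0 also at an unadjusted p under 0.05), with changes between -0.132 for TK1 and 0.105 for RRM1. A second RRM1 probe set changed by 0.184.

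Of the mitosis genes, UBE2C, the enzyme that passes ubiquitin to substrates of the anaphase promoting complex, had 2.03, 2.05 and 1.95 in HBL2 BR cells, against 1.84, 1.86 and 1.75 in HBL2 PT cells. The groups did not overlap, and the change was 0.195 ± 0.0570 (adjusted p = 0.0351). KIF23, a kinesin of the central spindle that is needed for cytokinesis, had 1.72, 1.74 and 1.76 in HBL2 BR cells, against 1.43, 1.53 and 1.49 in HBL2 PT cells. The resistant arrays were all higher, by 0.257 ± 0.0568 (adjusted p = 0.00612). A second KIF23 probe set, close to the array median, changed by 0.0225, and with that probe set the call was lost. CDC20, an activator of the anaphase promoting complex, was next in size at 0.224 ± 0.0818 but overlapped between groups (adjusted p = 0.0941).

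The common markers of dividing cells did not pass the test in HBL2. CDK1, the kinase that drives mitosis, had 2.80, 2.69 and 2.69 in HBL2 BR cells, against 2.55, 2.81 and 2.57 in HBL2 PT cells (change 0.0838 ± 0.0702, adjusted p = 0.530). CCNB1, its cyclin partner, had 2.57, 2.55 and 2.61 in HBL2 BR cells, against 2.503, 2.48 and 2.52 in HBL2 PT cells (change 0.0764 ± 0.0569, adjusted p = 0.468). TOP2A, the topoisomerase that untangles sister chromosomes, had 2.40, 2.501 and 2.62 in HBL2 BR cells, against 2.45, 2.44 and 2.56 in HBL2 PT cells (change 0.0218 ± 0.0632, adjusted p = 0.888). The CDK1 and TOP2A values overlapped between the groups, while the lowest CCNB1 value in HBL2 BR lay just above the highest in HBL2 PT. The other CDK1 probe sets changed by 0.260, 0.00623 and, on one low on the arrays, 0.133. MKI67, the gene of the proliferation marker Ki-67, had 2.08, 2.07 and 2.13 in HBL2 BR cells, against 1.90, 2.09 and 1.95 in HBL2 PT cells (change 0.115 ± 0.0613, adjusted p = 0.280), and its 3 other probe sets changed by between -0.0892 and 0.0203. No gene of the spindle checkpoint, the kinetochore or the mitotic cyclins and kinases was called by limma in HBL2. Of these 18, 2 had an unadjusted p under 0.05, against 3417 of all 14529 genes tested.

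For 50 of the 59 genes (84.7%, against 58.7% of all genes tested) the 95% interval of the HBL2 change lay within 0.3 units of 0. Larger changes of these 50 are thus outside the interval. The median standard error was 0.0637 for the 59 genes, against 0.0764 for all genes. MCM6 kept its call under all 23 alternative settings, whereas CDC25A lost it under 17, CDC6 under 12, UBE2C under 8 and KIF23 and RFC4 under 3 each. The number of called members was 2 without HBL2 BR replicate 1, 2 without HBL2 BR replicate 2, 3 without HBL2 PT replicate 2 and 3 once the 3 arrays with the lowest beta-actin signal were left out, against 6 with all arrays.

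**Figure D2:**
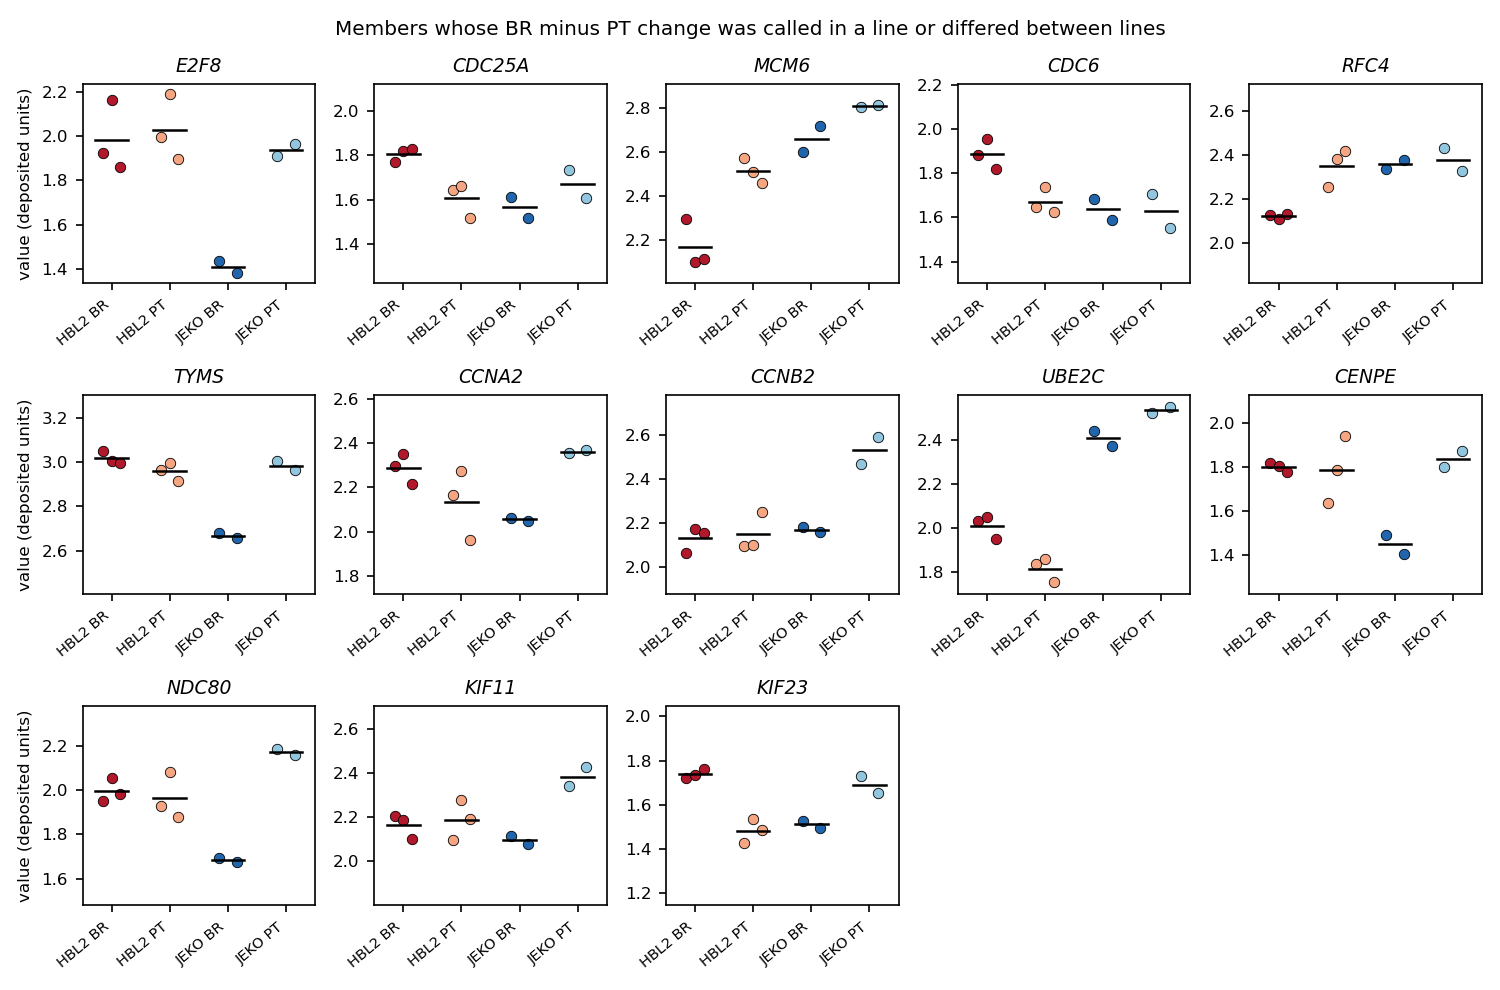
Values of the 13 genes whose change was called in a line or differed between lines are plotted by group in deposited units, with each point an array and each bar the group mean, and every panel spans the same range of units. The HBL2 BR points of MCM6 and RFC4 lie below those of HBL2 PT, and the JEKO BR points of E2F8, TYMS, CENPE and NDC80 lie below all other groups.

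In resistant JEKO cells, 6 of the 59 genes were lower in JEKO BR than in JEKO PT (10.2%, against 1.72% of all genes tested) and 0 were higher by limma (against 2.56% of all genes, and 0 members also at an unadjusted p under 0.05). Of the 6, E2F8 and TYMS belong to S phase and CCNB2, CENPE, NDC80 and KIF11 to mitosis. A negative change was found for 28 of the 32 mitosis genes, whose median was -0.0945, and for 22 of the 27 S phase genes, whose median was -0.0494, against 0.0122 over all genes tested. Over all 14529 genes, 6771 had a negative change. At an unadjusted p under 0.05, 15 of the 59 were lower by limma, against 1082 of all 14529 genes.

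Among the genes of G1/S control, E2F8, an E2F factor that represses other E2F targets late in S phase, had 1.43 and 1.38 in JEKO BR cells, against 1.91 and 1.96 in JEKO PT cells. Both resistant arrays lay far below both PT arrays, and the change of -0.531 ± 0.102 was the largest in size among the 59 in JEKO (limma adjusted p = 0.00743). CCNE1 had 1.28 and 1.37 in JEKO BR cells, against 1.19 and 1.26 in JEKO PT cells, with no overlap but a change of 0.102 ± 0.0802 and an adjusted p of 0.574. CDK2 and UHRF1, the reader of newly copied methylated DNA, changed by -0.205 ± 0.0865 and -0.194 ± 0.0923 (adjusted p = 0.223 and 0.289).

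No gene of origin licensing, the helicase or the replication fork was called in JEKO by limma. Of these 15, 2 had an unadjusted p under 0.05, against 2559 of all 14529 genes tested. The nearest was GINS2, a subunit of the active helicase, which changed by -0.243 ± 0.0731 (adjusted p = 0.0755). MCM6 had 2.60 and 2.72 in JEKO BR cells, against 2.81 and 2.81 in JEKO PT cells, with no overlap and a change of -0.149 ± 0.0785 (adjusted p = 0.352). MCM2 had 2.63 and 2.62 in JEKO BR cells, against 2.66 and 2.64 in JEKO PT cells (change -0.0254 ± 0.0642, adjusted p = 0.894). For PCNA the values were 3.08 and 2.98 in JEKO BR cells, against 3.15 and 3.09 in JEKO PT cells (change -0.0881 ± 0.0846, adjusted p = 0.665).

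In nucleotide supply, TYMS, the enzyme that makes thymidylate, had 2.68 and 2.66 in JEKO BR cells, against 3.004 and 2.96 in JEKO PT cells. The replicates of each group differed by little and the groups lay well apart, with a change of -0.317 ± 0.0637 (adjusted p = 0.0104). Its other probe sets changed by -0.388 and, on a probe set under the median on every array, -0.162. RRM1 and RRM2, the subunits of ribonucleotide reductase, did not pass the test, with changes of -0.00910 ± 0.0633 and -0.0534 ± 0.0693 (adjusted p = 0.966 and 0.771). A second RRM1 probe set, above the median on all 10 arrays, changed by -0.175, and that of RRM2 changed by -0.0567.

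Of the 4 kinetochore genes, 2 were lower. NDC80, a subunit of the complex that holds the ends of spindle microtubules, had 1.69 and 1.67 in JEKO BR cells, against 2.19 and 2.16 in JEKO PT cells. Both resistant arrays lay below every other array of the series, and the change was -0.490 ± 0.0767 (adjusted p = 0.00178). CENPE, a kinesin that moves chromosomes to the middle of the spindle, had 1.49 and 1.41 in JEKO BR cells, against 1.80 and 1.87 in JEKO PT cells. Those groups did not overlap either, and the change was -0.387 ± 0.0866 (adjusted p = 0.0190). CENPF, a large protein of the outer kinetochore, had 1.61 and 1.88 in JEKO BR cells, against 1.80 and 2.12 in JEKO PT cells, which overlapped (change -0.217 ± 0.0993, adjusted p = 0.265). CENPA, the histone that marks centromeres, changed by -0.114 ± 0.0868 (adjusted p = 0.558).

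Among the mitotic cyclins and kinases, CCNB2, cyclin B2, had 2.18 and 2.16 in JEKO BR cells, against 2.47 and 2.59 in JEKO PT cells. There was no overlap, and the change was -0.361 ± 0.0763 (adjusted p = 0.0138). CCNA2, cyclin A2, which acts from S phase into early mitosis, had 2.06 and 2.05 in JEKO BR cells, against 2.35 and 2.37 in JEKO PT cells. These were apart by -0.308 ± 0.0879, but the adjusted p of 0.0621 missed the threshold. CCNB1 had 2.45 and 2.28 in JEKO BR cells, against 2.41 and 2.39 in JEKO PT cells, which overlapped (change -0.0354 ± 0.0697, adjusted p = 0.860). CDK1 had 2.504 and 2.55 in JEKO BR cells, against 2.68 and 2.59 in JEKO PT cells (change -0.105 ± 0.0859, adjusted p = 0.594). The other probe sets of CDK1 changed by -0.243, -0.249 and, on one near the bottom of the arrays, 0.185, and the second probe set of CCNB1 changed by -0.196.

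Of the 8 genes of the spindle and midbody, all had a negative change in JEKO and 1 was called. KIF11, the kinesin that pushes spindle poles apart, had 2.11 and 2.08 in JEKO BR cells, against 2.34 and 2.42 in JEKO PT cells. The groups did not overlap, with a change of -0.288 ± 0.0751 (adjusted p = 0.0405). KIF23 had 1.53 and 1.495 in JEKO BR cells, against 1.73 and 1.65 in JEKO PT cells (change -0.178 ± 0.0696, adjusted p = 0.183). UBE2C had 2.44 and 2.37 in JEKO BR cells, against 2.52 and 2.55 in JEKO PT cells (change -0.128 ± 0.0699, adjusted p = 0.374), and the 3 genes of anaphase promotion had no call.

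None of the 3 genes of chromosome structure and the passenger complex was called in JEKO by limma (0 at an unadjusted p under 0.05). TOP2A had 2.49 and 2.53 in JEKO BR cells, against 2.43 and 2.48 in JEKO PT cells (change 0.0550 ± 0.0775, adjusted p = 0.791). MKI67 had 2.18 and 2.21 in JEKO BR cells, against 2.13 and 2.22 in JEKO PT cells (change 0.0181 ± 0.0751, adjusted p = 0.943). The probe sets of MKI67 disagreed, since its 3 others changed by -0.210, -0.157 and -0.0247. The spindle checkpoint had 0 of 4 called by limma (0 at an unadjusted p under 0.05), with BUB1, BUB1B, MAD2L1 and TTK changing by 0.0720, -0.0844, -0.137 and -0.0248.

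JEKO had only 2 arrays a group, and 40 of the 59 genes (67.8%, against 44.4% of all genes tested) had a 95% interval within 0.3 units of 0. The median standard error was 0.0780 for the 59 genes, against 0.0936 for all genes. NDC80 alone kept its call under all 23 alternatives, with a highest adjusted p of 0.0409, while E2F8 lost its call under 3, CCNB2 and CENPE under 6 each, TYMS under 7 and KIF11 under 10. Leaving out JEKO BR replicate 2 or JEKO PT replicate 2 left 1 called member, leaving out JEKO BR replicate 1 left 2 and leaving out JEKO PT replicate 1 left 3, against 6 with all arrays. JEKO BR replicate 2, which had the lowest GAPDH 5' minus 3' value (-0.643) and the third lowest beta-actin value, was also the array with the lowest median over the 32 mitosis genes. Without it the median change was -0.0846 for the mitosis genes and -0.0408 for the S phase genes, and with the beta-actin value as a covariate 8 members were called lower.

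**Figure D3:**
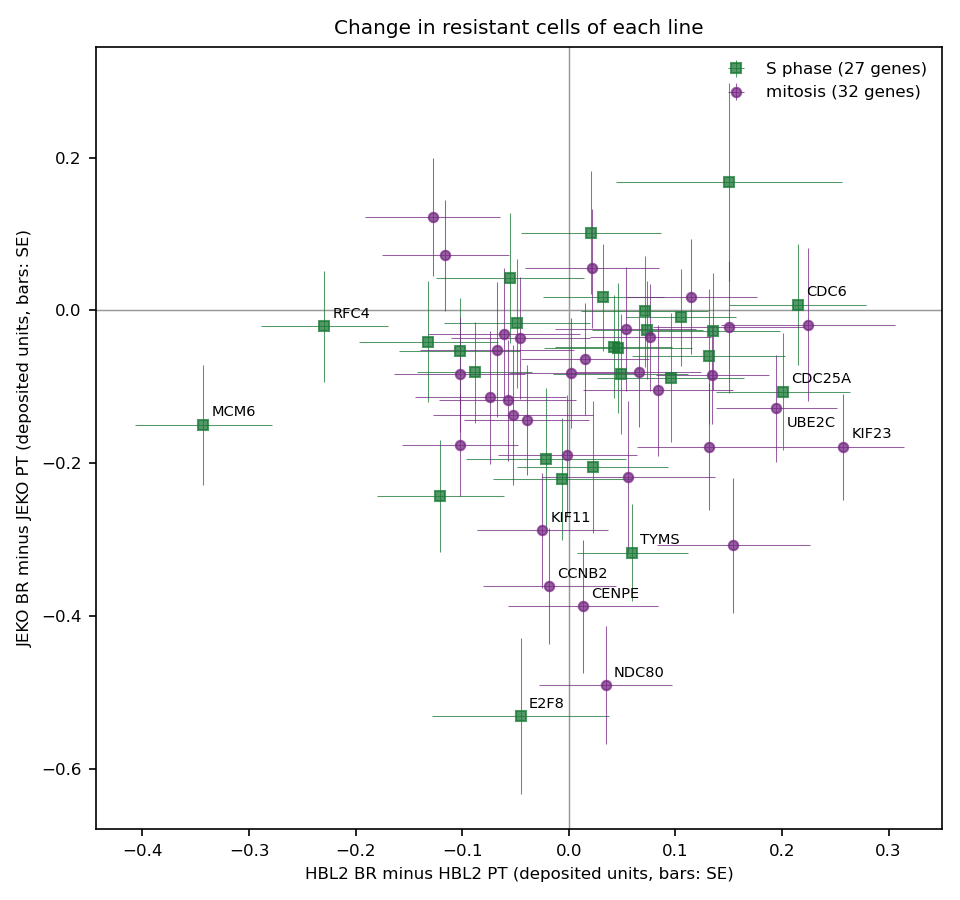
Each point is a gene, placed by its change in HBL2 (x axis) and in JEKO (y axis), BR minus PT in deposited units, with bars of 1 standard error and S phase genes as squares, mitosis genes as circles. Most points lie below the horizontal zero line, NDC80 and E2F8 lowest, while along the x axis they spread to both sides of 0 from MCM6 at -0.343 to KIF23 at 0.257.

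The change in HBL2 was set against the change in JEKO by testing the difference itself, which shares its arrays with the changes of each line given above. For 8 of the 59 genes the HBL2 change was higher than the JEKO change (13.6%, against 2.95% of all genes tested) and for 0 it was lower by limma (against 5.76% of all genes, with 2 members at an unadjusted p under 0.05). The 8 were E2F8 and TYMS of the S phase genes and CCNA2, CCNB2, UBE2C, CENPE, NDC80 and KIF23 of the mitosis genes. The median difference was 0.0992 for S phase genes and 0.108 for mitosis genes, against -0.0106 over all genes.

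For NDC80 the difference was 0.525 ± 0.0990 (limma adjusted p = 0.00329), with HBL2 values of 1.95, 2.06 and 1.98 in BR cells, against 1.93, 2.08 and 1.88 in PT cells. The HBL2 groups overlapped, whereas the JEKO groups given above did not. E2F8 differed by 0.485 ± 0.131 (adjusted p = 0.0289) and had 1.92, 2.16 and 1.86 in HBL2 BR cells, against 1.996, 2.19 and 1.90 in HBL2 PT cells, again overlapping. TYMS differed by 0.376 ± 0.0823 (adjusted p = 0.00897) and had 3.05, 3.01 and 2.998 in HBL2 BR cells, against 2.96, 2.99 and 2.92 in HBL2 PT cells.

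TYMS was thus slightly higher on each HBL2 BR array than on any HBL2 PT array, by 0.0594 ± 0.0520, a change that did not pass the test (adjusted p = 0.552). CENPE differed by 0.4005 ± 0.112 (adjusted p = 0.0345), with 1.82, 1.80 and 1.78 in HBL2 BR cells, against 1.64, 1.79 and 1.94 in HBL2 PT cells. CCNB2 differed by 0.342 ± 0.0985 (adjusted p = 0.0405), with 2.06, 2.17 and 2.15 in HBL2 BR cells, against 2.10, 2.10 and 2.25 in HBL2 PT cells. The HBL2 groups of CENPE and CCNB2 overlapped, and the HBL2 PT arrays of CENPE were spread more widely than its HBL2 BR arrays.

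For CCNA2, KIF23 and UBE2C the changes were positive in HBL2 and negative in JEKO, as they were for NDC80, TYMS and CENPE. CCNA2 differed by 0.462 ± 0.113 (adjusted p = 0.0174), with 2.30, 2.35 and 2.21 in HBL2 BR cells, against 2.17, 2.27 and 1.96 in HBL2 PT cells, and its second probe set changed by -0.00124 in HBL2 and by -0.257 in JEKO. KIF23 differed by 0.436 ± 0.0898 (adjusted p = 0.00601), a call lost when its second probe set was used. UBE2C differed by 0.323 ± 0.0902 (adjusted p = 0.0345). NDC80 kept its call in all 22 alternatives run for this comparison, KIF23 lost it in 3, TYMS in 5, E2F8 in 7, CCNA2 and UBE2C in 8 each, CENPE in 9 and CCNB2 in 13.

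KIF11 was also compared: it had 2.20, 2.19 and 2.10 in HBL2 BR cells, against 2.10, 2.28 and 2.19 in HBL2 PT cells, and the difference between its changes was 0.263 ± 0.0970 (adjusted p = 0.110). Of the genes called in HBL2, CDC25A had 1.61 and 1.52 in JEKO BR cells, against 1.74 and 1.61 in JEKO PT cells. CDC6 had 1.68 and 1.59 in JEKO BR cells, against 1.71 and 1.55 in JEKO PT cells (change 0.00765). The probe sets of CDC6 disagreed in JEKO, since its second, above the median on all 10 arrays, changed by 0.165, close to its 0.176 in HBL2. The differences of CDC25A and CDC6 between lines were 0.307 ± 0.0992 and 0.207 ± 0.102 (adjusted p = 0.0681 and 0.252), so a difference between lines was not shown for them. RFC4 had 2.34 and 2.38 in JEKO BR cells, against 2.43 and 2.33 in JEKO PT cells, and differed by -0.209 ± 0.0938 (adjusted p = 0.201), and MCM6 differed by -0.194 ± 0.101 (adjusted p = 0.288). With 1 array left out, the number of members whose changes differed was 2 when the array was JEKO BR replicate 2 or JEKO PT replicate 1, and 3 when it was JEKO PT replicate 2, HBL2 BR replicate 2 or else JEKO BR replicate 1, against 8 with all arrays. Leaving out the 3 arrays with the lowest beta-actin signal left 1, and with that signal as a covariate 9 differed.

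**Figure D4:**
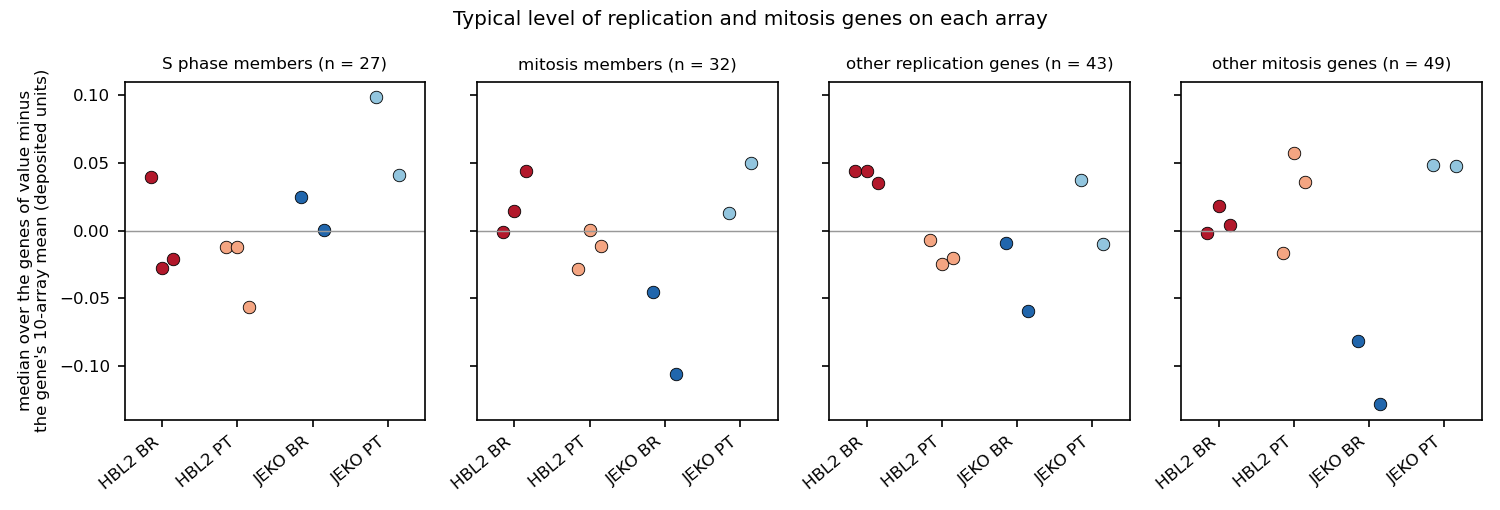
For each array the point gives the median, over the genes of the panel, of the value minus the gene's mean over the 10 arrays, in deposited units, by group and with no test. The JEKO BR arrays lie at -0.0453 and -0.106 for the 32 mitosis genes, against 0.0131 and 0.04998 for JEKO PT, and the 49 other mitosis genes show the JEKO BR arrays lowest too.

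Read array by array, the typical level of the 32 mitosis genes relative to each gene's own mean was -0.0453 and -0.106 on the JEKO BR arrays, against 0.0131 and 0.04998 on the JEKO PT arrays. In HBL2 it was -0.00115, 0.0146 and 0.0442 on the BR arrays, against -0.0286, 0.000173 and -0.0111 on the PT arrays. The JEKO BR arrays were thus the lowest of the series, and those of HBL2 BR and HBL2 PT overlapped. The 4 kinetochore genes showed the widest gap of the 10 role groups in JEKO, with -0.255 and -0.306 in JEKO BR, against 0.101 and 0.0611 in JEKO PT. The 27 S phase genes were at 0.0251 and 0.000153 in JEKO BR, against 0.0988 and 0.0414 in JEKO PT.

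The promoters of the genes that were lower in JEKO BR are shown because these genes were lower in the same cells and because S phase and mitosis genes are known for different promoter elements, the E2F site for genes of the G1/S transition and the CCAAT box with the cell cycle homology region (CHR) for genes of G2 and mitosis. Each sequence is 150 bases that end just before the annotated start of transcription, on the gene's own strand, from RefSeq (GRCh38.p14). Capitals mark a match to CCAAT, to the CHR letters TTTGAA or to an E2F form, which is TTCCCGC or else TTGGCGC or else TTCGCGC or else TTGCCGC. All were searched on both strands, so that a match on the other strand appears as its reverse complement. E2F8 had no entry in the promoter table.
TYMS: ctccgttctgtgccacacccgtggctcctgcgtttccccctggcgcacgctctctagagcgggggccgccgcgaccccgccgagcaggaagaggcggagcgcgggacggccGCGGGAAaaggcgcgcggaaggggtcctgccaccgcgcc
CCNB2: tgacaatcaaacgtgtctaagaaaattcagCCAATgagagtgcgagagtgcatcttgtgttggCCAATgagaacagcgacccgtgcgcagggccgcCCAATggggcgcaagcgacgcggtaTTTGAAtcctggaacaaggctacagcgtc
CENPE: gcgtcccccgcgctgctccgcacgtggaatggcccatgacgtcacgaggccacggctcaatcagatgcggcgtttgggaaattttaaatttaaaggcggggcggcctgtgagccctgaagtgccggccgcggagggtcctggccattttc
NDC80: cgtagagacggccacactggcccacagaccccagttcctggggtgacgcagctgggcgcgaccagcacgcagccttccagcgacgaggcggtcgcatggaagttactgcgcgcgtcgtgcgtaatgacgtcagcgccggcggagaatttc
KIF11: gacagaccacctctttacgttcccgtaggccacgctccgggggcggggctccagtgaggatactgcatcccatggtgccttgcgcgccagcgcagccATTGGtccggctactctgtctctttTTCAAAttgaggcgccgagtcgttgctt

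These stretches lie at chr18:657503-657652 on the plus strand for TYMS, chr15:59104996-59105145 on the plus strand for CCNB2, chr4:103198344-103198493 on the minus strand for CENPE, chr18:2571407-2571556 on the plus strand for NDC80 and chr10:92592980-92593129 on the plus strand for KIF11. TYMS held 1 E2F form and no CCAAT or CHR letters. CCNB2 held 3 CCAAT boxes and, after them, 1 CHR match. KIF11 held 1 CCAAT box and 1 CHR match, both on the other strand. CENPE held none of these letters, and NDC80 held none in the stretch shown, while a CHR match that starts at position -3 runs across its start. The genes that were lower together thus did not share a single set of these letters, and no match says only that the letters are not in this window.

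Over windows of 250 bases before to 50 after each start, 48 of the 59 genes matched the table with 66 windows, since some genes have several starts. The CHR letters were found in 54.3% of the 35 windows of mitosis genes and in 3.23% of the 31 windows of S phase genes, against 15.2% of all 34943 promoters. The E2F forms were found in 28.6% of the mitosis windows and 67.7% of the S phase windows, against 12.9% of all promoters. CCAAT was found in 77.1% of the mitosis windows and 67.7% of the S phase windows, against 34.6% of all promoters, and CCAAT with CHR in 48.6% of the mitosis windows, 3.23% of the S phase windows and 5.92% of all promoters. The E2F form TTGGCGC can share letters with a CCAAT box on the other strand. A match is a description of the sequence and not a binding site or a cause.

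The lines were then compared with each other, first in PT cells. Of the 59 genes, 7 were higher in HBL2 PT than in JEKO PT (11.9%, against 13.9% of all genes tested) and 15 were lower (25.4%, against 9.25% of all genes), 8 of them S phase genes and 7 mitosis genes. The lower genes included 5 of the 11 genes of origin licensing and the helicase. Because this comparison uses the PT arrays of both lines, it shares them with the changes given above. The median difference was -0.0652 for the S phase genes and -0.0473 for the mitosis genes, against 0.0139 over all genes tested.

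Cyclin E was higher in HBL2. CCNE2 had 1.58, 1.69 and 1.49 in HBL2 PT cells, against 1.003 and 0.899 in JEKO PT cells, the largest difference upward at 0.636 ± 0.0778 (limma adjusted p = 2.12e-05). CCNE1 had 1.62, 1.60 and 1.44 in HBL2 PT cells, against 1.19 and 1.26 in JEKO PT cells, a difference of 0.327 ± 0.0732 (adjusted p = 0.00390). Neither gene overlapped between the lines, and the CCNE1 call was lost without JEKO PT replicate 1, with an adjusted p of 0.0576. MCM4, at 2.20, 2.28 and 2.31 in HBL2 PT cells, against 2.10 and 2.05 in JEKO PT cells, was the exception among the MCM genes, being higher by 0.192 ± 0.0639 (adjusted p = 0.0399). That call was lost under 12 of 23 alternatives, and of its 4 other probe sets 2 were at 0.275 and 0.0958 and 2 at -0.0521 and -0.235.

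The other MCM genes that passed the test were lower in HBL2. MCM3 had 2.30, 2.32 and 2.34 in HBL2 PT cells, against 2.84 and 2.74 in JEKO PT cells (difference -0.471 ± 0.0615, adjusted p = 4.39e-05). MCM7 had 2.52, 2.47 and 2.32 in HBL2 PT cells, against 2.83 and 2.80 in JEKO PT cells (difference -0.375 ± 0.0712, adjusted p = 0.00116). A second MCM7 probe set, above the median on all 10 arrays, differed by only -0.0747. MCM6, at 2.57, 2.51 and 2.46 in HBL2 PT cells, against 2.81 and 2.81 in JEKO PT cells, was lower, at -0.295 ± 0.0717 (adjusted p = 0.00671). The MCM6 call was lost under 4 of 23 alternatives, among them leaving out either JEKO PT array. Its second probe set, low on the arrays, differed by -0.0932. No HBL2 PT array of these 3 genes reached any JEKO PT array. UHRF1 had 2.34, 2.48 and 2.57 in HBL2 PT cells, against 2.96 and 2.77 in JEKO PT cells (difference -0.402 ± 0.0842, adjusted p = 0.00247). PCNA had 2.80, 2.90 and 2.69 in HBL2 PT cells, against 3.15 and 3.09 in JEKO PT cells (difference -0.321 ± 0.0772, adjusted p = 0.00631). The groups of both genes were apart, and both calls were lost without JEKO PT replicate 1 (highest adjusted p over the alternatives 0.0671 for UHRF1 and 0.178 for PCNA).

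Among mitosis genes the kinetochore and checkpoint were led by CENPF and TTK. CENPF had 2.51, 2.53 and 2.62 in HBL2 PT cells, against 1.80 and 2.12 in JEKO PT cells, a difference of 0.592 ± 0.0906 (adjusted p = 0.000183), with 0.241 and 0.103 on its other probe sets, of which neither passed the test in its place. TTK, the kinase that starts the spindle checkpoint, had 2.06, 1.97 and 1.82 in HBL2 PT cells, against 1.43 and 1.497 in JEKO PT cells, a difference of 0.488 ± 0.0740 (adjusted p = 0.000168). The HBL2 arrays of both genes lay above every JEKO array. PTTG1, which encodes securin, had 2.98, 2.94 and 2.75 in HBL2 PT cells, against 2.54 and 2.75 in JEKO PT cells. These values overlapped although the difference of 0.240 ± 0.0796 passed the test (adjusted p = 0.0386). KIF2C, a kinesin that shortens microtubules, had 2.31, 2.21 and 2.39 in HBL2 PT cells, against 2.12 and 2.10 in JEKO PT cells (difference 0.190 ± 0.0656, adjusted p = 0.0467). The PTTG1 call was lost under 11 alternatives and the KIF2C call under 16.

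UBE2C was the gene with the largest difference of all 59 in PT cells. It had 1.84, 1.86 and 1.75 in HBL2 PT cells, against 2.52 and 2.55 in JEKO PT cells, a difference of -0.719 ± 0.0638 (adjusted p = 6.23e-07). CCNB2 had 2.10, 2.10 and 2.25 in HBL2 PT cells, against 2.47 and 2.59 in JEKO PT cells (difference -0.381 ± 0.0697, adjusted p = 0.000866). NUSAP1, a microtubule-binding protein of the spindle, had 2.49, 2.38 and 2.49 in HBL2 PT cells, against 2.71 and 2.83 in JEKO PT cells (difference -0.318 ± 0.0685, adjusted p = 0.00297). All HBL2 PT arrays of these 3 genes were below all JEKO PT arrays. CDC25B, a phosphatase that activates CDK1, had 2.01, 1.94 and 2.06 in HBL2 PT cells, against 2.21 and 2.24 in JEKO PT cells (difference -0.222 ± 0.0704, adjusted p = 0.0314). NDC80 differed by -0.210 ± 0.07004 (adjusted p = 0.0398), a call lost under 14 of 23 alternatives.

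Of the genes named whatever their result, MCM2, CDK1, CCNB1 and TOP2A did not pass the test between the lines in PT cells, with differences of -0.0824, 0.00983, 0.101 and 0.0275. The probe sets of CDK1 disagreed, since its others differed by -0.395, -0.139 and, on one low on the arrays, 0.0310. MKI67 was lower in HBL2 PT, at -0.198 ± 0.0686 (adjusted p = 0.0478), a call lost under 16 of 22 alternatives. Over all 59 genes, 8 were called without JEKO PT replicate 1 and 12 without JEKO PT replicate 2, against 22 with all arrays. CCNE2, MCM3, MCM7, TTK and UBE2C kept their calls under every alternative run. Both MCM7 probe sets can bind several transcripts, so the setting that leaves such probe sets out was not run for MCM7.

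In resistant cells, more of the genes were higher in HBL2. Of the 59 genes, 20 were higher in HBL2 BR than in JEKO BR (33.9%, against 14.0% of all genes tested) and 8 were lower (13.6%, against 14.1% of all genes). Mitosis genes made up 13 of the 20. Their median difference was 0.0984, against 0.00603 over all genes, while that of the S phase genes was -0.0362. This comparison shares no arrays with the comparison of PT cells, but the difference of the 2 is the test of the changes given above.

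By role, 3 of the 4 kinetochore genes were higher in HBL2 BR, led by CENPF at 0.865 ± 0.0906 and CENPE at 0.351 ± 0.0791 (limma adjusted p = 2.86e-06 and 0.00317). Of the 8 genes of G1/S control, 4 were higher, led by E2F8 at 0.576 ± 0.0927 and CCNE2 at 0.538 ± 0.0778 (adjusted p = 0.000207 and 7.63e-05). Of the 10 mitotic cyclins, kinases and regulators, 4 were higher and 1 was lower, with CCNA2 higher by 0.233 ± 0.0803 and CDC25B lower, at -0.472 ± 0.0704 (adjusted p = 0.0394 and 0.000101). The CCNA2 call was lost under 10 of 23 alternatives, and the CDC25B call under 0 of 22.

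In the spindle checkpoint, 2 of 4 genes were higher: TTK by 0.566 ± 0.0740 and BUB1B by 0.174 ± 0.0590 (adjusted p = 2.75e-05 and 0.0372), of which the BUB1B call was lost under 9 of 23 alternatives and the TTK call under 0. In anaphase promotion, CDC20 was higher by 0.383 ± 0.0915 and UBE2C was lower, at -0.396 ± 0.0638 (adjusted p = 0.00483 and 0.000208). Of the spindle genes, 3 of 8 were higher and 1 lower, with KIF2C at 0.294 ± 0.0656 and NUSAP1 at -0.337 ± 0.0685 (adjusted p = 0.00299 and 0.00148).

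Origin licensing and the helicase held 2 higher and 3 lower genes of 11, with MCM6 at -0.489 ± 0.0717 and MCM3 at -0.381 ± 0.0615 (adjusted p = 8.77e-05 and 0.000213). In nucleotide supply TYMS was higher by 0.350 ± 0.0582 and TK1, thymidine kinase, was lower, at -0.275 ± 0.0725 (adjusted p = 0.000274 and 0.00926). At the fork only RFC4 of 4 genes was called, at -0.235 ± 0.0663 (adjusted p = 0.0139). RFC4 lost its call under 3 of 23 alternatives and CDC20, CENPE and TK1 under 1 each. The number of called members was 16 without JEKO BR replicate 2, 18 without JEKO BR replicate 1 and 15 once the 3 arrays with the lowest beta-actin signal were left out, against 28 with all arrays.

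**Figure D5:**
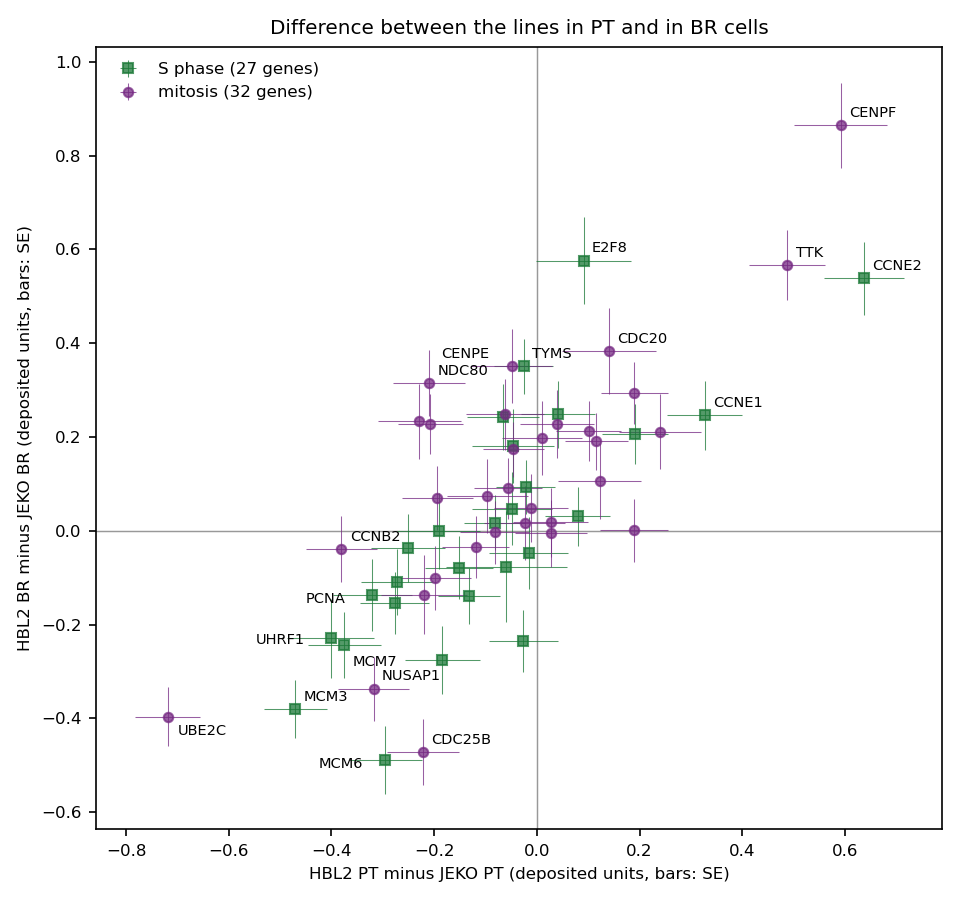
Each point is a gene, placed by the difference HBL2 minus JEKO in PT cells (x axis) and in BR cells (y axis) in deposited units, with bars of 1 standard error and S phase genes as squares, mitosis genes as circles. UBE2C, MCM3 and CCNE2, CENPF and TTK differ the same way in both, and E2F8, TYMS, CENPE and NDC80 lie higher on the y axis than on the x axis.

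Genes of the same processes that are not among the 59 were counted from lists chosen by function. Of 43 other replication genes tested, 9 were higher (20.9%, against 4.91% of all genes) and 1 was lower (2.33%, against 6.86%) in HBL2 BR than in HBL2 PT. In JEKO BR, 1 was higher (2.33%, against 2.56%) and 2 were lower (4.65%, against 1.72%) than in JEKO PT. Their median change was 0.0685 in HBL2 and -0.0762 in JEKO, against -0.000987 and 0.0122 over all genes. In HBL2 the called genes with the largest changes were MCM10, a factor that helps to start the helicase (0.330 ± 0.0650), RPA3, a subunit of the single-strand binding protein (0.328 ± 0.1001), and TIPIN, a fork protection factor (0.324 ± 0.0565), and ORC4, a subunit of the origin recognition complex, was lower (-0.296 ± 0.0642). In JEKO, RPA1 was higher (0.274 ± 0.0664), and MCM10 (-0.415 ± 0.0796) and POLD3, a subunit of DNA polymerase delta (-0.381 ± 0.0719), were lower.

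MCM10 changed in opposite directions in the lines. It had 1.89, 1.90 and 1.76 in HBL2 BR cells, against 1.45, 1.56 and 1.54 in HBL2 PT cells, and 1.49 and 1.44 in JEKO BR cells, against 1.97 and 1.79 in JEKO PT cells. No groups overlapped within a line, and the difference of the changes was 0.745 ± 0.103 (limma adjusted p = 0.000263). The JEKO call was lost without JEKO PT replicate 1 and without JEKO BR replicate 2 (highest adjusted p over the alternatives 0.116). Of the other replication genes 6 had a higher change in HBL2 than in JEKO (13.95%, against 2.95% of all genes), POLD3 (0.461 ± 0.0928) and TIPIN (0.416 ± 0.0893) following MCM10. By limma 0 had a lower change (against 5.76% of all genes, and 0 also at an unadjusted p under 0.05). The RPA3 call in HBL2 was lost under 15 of 23 alternatives and the RPA1 call in JEKO under 9.

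Of 49 other mitosis genes, 1 was higher (2.04%, against 4.91% of all genes) and 2 were lower (4.08%, against 6.86%) in HBL2 BR than in HBL2 PT, both shares under that of all genes. In JEKO BR, 0 were higher by limma (against 2.56% of all genes, and 1 at an unadjusted p under 0.05) and 3 were lower (6.12%, against 1.72%) than in JEKO PT. Their median change was -0.00141 in HBL2 and -0.123 in JEKO, where 46 of the 49 had a negative change (against 6771 of all 14529 genes). The JEKO genes were CENPM (-0.326 ± 0.0758), a centromere protein, MASTL (-0.272 ± 0.0690), a kinase that restrains a phosphatase in mitosis, and ZWINT (-0.255 ± 0.0675), a kinetochore protein. The HBL2 genes were CENPN (0.322 ± 0.0595), SPC25 (-0.197 ± 0.0589), a partner of NDC80 in its complex, and HJURP (-0.194 ± 0.0560), which deposits CENPA. SPC25 changed by -0.260 ± 0.0721 in JEKO (adjusted p = 0.0536). These JEKO calls were lost under 6, 11 and 13 alternatives, and the HBL2 calls of CENPN, SPC25 and HJURP under 2, 9 and 8. The change was higher in HBL2 than in JEKO for 3 of the 49 (6.12%, against 2.95% of all genes). It was lower for 0 by limma (against 5.76% of all genes, and 0 also at an unadjusted p under 0.05). The 3 were MELK (0.436 ± 0.121), NCAPG (0.361 ± 0.0968) and CENPN (0.361 ± 0.0941). These 3 calls were lost under 12, 10 and 9 of 22 alternatives.

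A further list held 23 tested genes classed as inhibitors of the cycle. By limma 0 were higher in HBL2 BR than in HBL2 PT (against 4.91% of all genes, and 2 at an unadjusted p under 0.05). In the same comparison 3 were lower (13.04%, against 6.86% of all genes). In JEKO BR, 2 were higher (8.70%, against 2.56%) and 1 was lower (4.35%, against 1.72%) than in JEKO PT. In both lines the 20 others were not called. CDKN1A, which encodes the CDK inhibitor p21, had 1.33, 1.36 and 1.49 in HBL2 BR cells, against 1.81, 1.68 and 1.80 in HBL2 PT cells. In JEKO it had 1.78 and 1.67 in BR cells, against 1.22 and 1.22 in PT cells. Its changes of -0.372 ± 0.0646 in HBL2 and 0.505 ± 0.0791 in JEKO were both called, without overlap of groups, and differed by -0.877 ± 0.102 (adjusted p = 5.33e-05), a difference that was called under every alternative run. CDKN1C, which encodes p57, had 1.14, 1.30 and 1.42 in HBL2 BR cells, against 1.48, 1.38 and 1.61 in HBL2 PT cells, which overlapped. In JEKO it had 2.25 and 2.48 in BR cells, against 1.39 and 1.76 in PT cells, a change of 0.793 ± 0.120 (adjusted p = 0.00141).

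BTG1, a gene that slows growth of lymphoid cells, had 1.66, 1.74 and 1.76 in HBL2 BR cells, against 2.33, 2.38 and 2.38 in HBL2 PT cells, a change of -0.641 ± 0.0629 (limma adjusted p = 3.26e-06). In JEKO it had 2.59 and 2.63 in BR cells, against 2.35 and 2.57 in PT cells (change 0.153 ± 0.0770, adjusted p = 0.327). The HBL2 groups were far apart, but the call was lost without probe sets that can bind several transcripts (adjusted p = 0.416). CDKN2D was lower in HBL2 BR, at -0.295 ± 0.0875, a call lost under 11 of 21 alternatives, and LIN52, of the complex that silences cell cycle genes in resting cells, was lower in JEKO BR, at -0.332 ± 0.0733, a call lost under 5 of 23. CDKN1B, which encodes p27, changed by -0.0797 ± 0.0584 in HBL2 and -0.0342 ± 0.0716 in JEKO (adjusted p = 0.459 and 0.870). CDKN2A, which encodes p16 and ARF, changed by 0.117 ± 0.0807 and -0.0355 ± 0.0988 (adjusted p = 0.429 and 0.906), and it had 0.544, 0.853 and 0.818 in HBL2 PT cells, against 2.09 and 2.17 in JEKO PT cells. The HBL2 values lay near the array median of 0.730 (difference -1.39 ± 0.0902, adjusted p = 2.95e-08).

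Of 12 genes of entry into G1, 1 was higher in HBL2 BR (8.33%, against 4.91% of all genes) and 1 in JEKO BR (8.33%, against 2.56%). CDK6, a kinase activated by D cyclins, had 2.03, 1.96 and 1.90 in HBL2 BR cells, against 0.745, 1.09 and 0.983 in HBL2 PT cells, a change of 1.02 ± 0.107 (limma adjusted p = 7.15e-06). In JEKO it was under the array median at 0.603 and 0.232 in BR cells, against 0.477 and 0.170 in PT cells (change 0.0945 ± 0.132, adjusted p = 0.788). Its HBL2 call was lost with percentile ranks (adjusted p = 0.0620). CCND2, cyclin D2, had 1.34 and 1.52 in JEKO BR cells, against 0.368 and 0.720 in JEKO PT cells, a change of 0.885 ± 0.104 (adjusted p = 0.000160), which had the other sign (-0.0719) when the median of its probe sets was taken. In HBL2 it had 2.07, 2.12 and 2.03 in BR cells, against 1.86, 1.89 and 2.07 in PT cells, which overlapped (change 0.134 ± 0.0853, adjusted p = 0.385).

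The other genes of G1 entry named whatever their result were not called in either line. CCND1 changed by -0.0142 ± 0.0634 in HBL2 and -0.249 ± 0.0776 in JEKO (adjusted p = 0.928 and 0.0853), and the JEKO direction depended on the probe set. CDK4 changed by 0.00844 ± 0.0514 and 0.00571 ± 0.0629 (adjusted p = 0.949 and 0.979). MYC changed by 0.189 ± 0.0655 and 0.0786 ± 0.0802 (adjusted p = 0.0758 and 0.687). Under 4 of 22 alternatives MYC was called higher in HBL2, and under 3 of 23 CCND1 was called lower in JEKO. CDKN2C was not analysed here.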

How the data were processed

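Total RNA from logarithmically growing HBL2 and JEKO cells was biotin-labelled and hybridised to Affymetrix arrays of 54675 probe sets, per the labels' protocols. The values are the deposited scores. The submitters' processing notes name MAS5, with no version, and what was done after it is not given in the sources used here. Once sorted, the deposited scores are identical between arrays (largest difference 0), so each depends only on rank. Precision is limited by the number of arrays.

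The platform annotation gave 1 gene symbol to 41091 probe sets, several to 1801 and none to 11721, and 62 more were controls. Probe sets with 1 symbol were kept where 2 or more arrays had them at or above the 50th percentile, and each gene was then read from its probe set of highest mean (14529 genes). The 59 members had 118 probe sets, 24 with 1 and 35 with more, up to 5. Names came from the annotation and RefSeq (GRCh38.p14), with 0 symbols changed. All columns of values had a sample (0 others).

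Groups came from sample titles. The fit used limma 3.58.1 (R 4.3.3, lmFit, then eBayes with trend) on 4 group means, with 6 residual degrees of freedom and on average 9.89 prior ones. Tests were two-sided, with Benjamini-Hochberg adjustment over all 14529 genes. The planned design was followed, and the fit was checked on simulated data. Members, lists and the genes to name were chosen with earlier results of these data known. Every array is given for each member called in a BR minus PT comparison or in their difference, the 5 largest called differences each way in PT cells among S phase and among mitosis members, and 7 members named whatever their result. Others are given by role group with examples, and other lists by up to 3 called genes each way.

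Alternatives were a filter at the 75th percentile or none, array weights, a robust trend or none, the compared groups alone, a replicate block, the median over probe sets, leaving out _x_at and _s_at probe sets, percentile ranks, normal scores, the beta-actin value as a covariate, the 3 arrays of lowest beta-actin value left out, and each array left out in turn. A JEKO group of 1 array is then assumed to vary like the others.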

Additional observations from a re-analysis of the deposited data

Results flagged for a closer look

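The changes of 8 members differed between the lines by the limma test of the difference itself (HBL2 change minus JEKO change, deposited units). NDC80 differed by 0.525 (adjusted p = 0.00329), KIF23 by 0.436 (0.00601), TYMS by 0.376 (0.00897), CCNA2 by 0.462 (0.0174), E2F8 by 0.485 (0.0289), CENPE by 0.400 (0.0345), UBE2C by 0.323 (0.0345) and CCNB2 by 0.342 (0.0405). In JEKO all 8 changes were negative, and in HBL2 the changes of KIF23 and UBE2C were called higher. Without JEKO BR replicate 2, the array with the lowest GAPDH 5' minus 3' value, 2 of the 59 genes differed between the lines. Without JEKO PT replicate 1, whose beta-actin value of -0.705 was not among the lowest, 2 did as well. Leaving out JEKO PT replicate 2, JEKO BR replicate 1 or HBL2 BR replicate 2 left 3. Without the 3 arrays of lowest beta-actin signal 1 of the 59 did, and with that signal as a covariate 9 did.

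Of the other replication genes, MCM10 differed by 0.745 (adjusted p = 0.000263), POLD3 by 0.461 (0.00514) and TIPIN by 0.416 (0.00802). Of the other mitosis genes, CENPN differed by 0.361 (0.0241), NCAPG by 0.361 (0.0277) and MELK by 0.436 (0.0336). Of the 23 genes classed as inhibitors, 3 differed the other way (13.04%, against 5.76% of all genes). These were CDKN1A by -0.877 (5.33e-05), BTG1 by -0.794 (0.000109) and CDKN1C by -0.995 (0.000732). Of the genes of G1 entry, CDK6 differed by 0.926 (0.00263) and CCND2 by -0.751 (0.00221). CDK6 lay under the array median on all 4 JEKO arrays and CCND2 on both JEKO PT arrays, and the CDK6 difference was not called under 3 of 22 alternatives (highest adjusted p 0.512). Groups of 2 or 3 arrays were too small to look for single arrays that stand apart.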

How the results depend on the processing

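With 2 or 3 arrays a group, the counts of called members depended on single arrays more than on the method. Leaving out each array in turn, the called members numbered 2 to 6 for HBL2 BR against HBL2 PT, 1 to 8 for JEKO BR against JEKO PT, 8 to 20 for HBL2 PT against JEKO PT, 16 to 31 for HBL2 BR against JEKO BR and 2 to 9 for the difference of the changes, against 6, 6, 22, 28 and 8 with all arrays. The median changes ran between 0.0198 and 0.0373 for S phase genes and -0.00482 and 0.0360 for mitosis genes in HBL2, and between -0.0912 and -0.0254 for S phase genes and -0.130 and -0.0759 for mitosis genes in JEKO. Between the lines they ran between -0.129 and -0.00621 (S phase) and -0.0716 and -0.0260 (mitosis) in PT cells, between -0.0622 and -0.0149 and between 0.0860 and 0.132 in BR cells, and between 0.0782 and 0.146 and between 0.108 and 0.133 for the difference of the changes.

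Once the 3 arrays with the lowest beta-actin signal were left out, the called members numbered 3 in HBL2, 1 in JEKO, 15 in BR cells and 1 for the difference, and the S phase median was -0.103 in PT cells and -0.0951 in BR cells. In HBL2, 3 members were called without the trend, 3 with the 2 groups alone and 3 with the median over probe sets. In PT cells 14 were called with those groups alone and 11 without _x_at and _s_at probe sets, of 43 members that then had a probe set. For the difference of the changes 4 were called without the trend, 5 with the median over probe sets and 5 with percentile ranks.

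With the median over probe sets the mitosis median was -0.122 in JEKO and 0.179 for the difference, and the S phase median was -0.132 in PT cells and 0.0134 in BR cells. Without _x_at and _s_at probe sets the mitosis median was -0.136 in JEKO, 0.133 in BR cells and 0.188 for the difference, and the S phase median in BR cells was 0.0304. On percentile ranks, a scale of its own, the medians of the difference were 0.280 percentile points for S phase and 1.33 for mitosis genes.

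Same-numbered BR and PT arrays deviated together with correlations of 0.0167, 0.136 and 0.00752 in HBL2 and 0.0781 in JEKO, so the numbers were not taken as pairs. With the replicate block the called members numbered 6 in HBL2, 6 in JEKO (5 of them called without it), 19 in PT cells, 27 in BR cells and 8 for the difference, and this moved no count by more than 1.5 times.

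Among named genes, 1 called member turned sign, KIF23 between BR cells without _x_at and _s_at probe sets (-0.0375), as did CCND2 with the median over probe sets (-0.0719 in JEKO and 0.249 for the difference). The other turns were of genes that were not called. With 1 array left out, the HBL2 change ran between -0.0376 and 0.0555 for CCNE1, -0.0340 and 0.0753 for TOP2A, -0.0714 and 0.0433 for CCND1 and -0.0120 and 0.0246 for CDK4, and the JEKO change between -0.118 and 0.0474 for CCNB1, -0.0267 and 0.0628 for MKI67, -0.0753 and 0.00434 for CDKN2A, -0.00648 and 0.0179 for CDK4 and -0.103 and 0.0348 for CDKN1B. In other settings the HBL2 change was, for CCNE1 and CDK1 with array weights, -0.0292 and -0.0152. For CCNB1 and TOP2A it was -0.00322 and -0.0239 with the median over probe sets. Without _x_at and _s_at probe sets it was -0.0828 for CCNB1, -0.0201 for TOP2A and 0.00411 for CCND1, and without the 3 arrays -0.0487 for TOP2A, -0.0320 for CDKN2A and -0.00401 for CDK4. The JEKO change was -0.183 for MKI67 with the median over probe sets, 0.240 for CCND1 without _x_at and _s_at probe sets and 0.0474 for CCNB1 without the 3 arrays. The cause of these turns was not tested.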
